A study of Mus musculus with 19 samples.

Results

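The 10 genes described here build, branch and break down glycogen, the stored polymer of glucose, and were followed by name through every library of a mouse study of Musclin. Musclin, encoded by *Ostn*, is a small protein secreted by skeletal muscle. All 10 symbols were found in each of the 3 expression tables, which list 55573 genes for 7 tissues, 55487 genes for brown adipose tissue (BAT) and 13756 genes for inguinal white adipose tissue (iWAT). The list was partly chosen by a measured value, the much lower FPKM of *Ppp1r3b* in iWAT of the transgenic mice, so the genotype values of the 10 genes in iWAT are a description and carry no test. RNA-seq expression is given as FPKM, the fragments per kilobase of transcript scaled to sequencing depth, which allows levels of different genes to be set side by side because it is per length.

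The 19 libraries fall into 3 sets. The first set is 1 library each of tibialis anterior muscle, heart, liver, white adipose tissue, brown adipose tissue, small intestine and brain from wild-type (WT) C57BL/6J mice on chow. The other 2 sets are iWAT and BAT of male WT and MCK-Musclin mice, 3 libraries per genotype and depot, all on chow, 5 months old and kept at 8 °C for 1 week before sampling. In MCK-Musclin mice the Musclin coding sequence is driven by the promoter of muscle creatine kinase, an enzyme of skeletal and cardiac muscle. Of the 5 founder lines that were established and backcrossed to C57BL/6J, the one used for these libraries is not given in the sources used here. For the 7 tissues no age, temperature or white adipose depot is stated for the libraries themselves; the study's general housing was near room temperature, and it gives an age range of several months for its chow-fed mice. The 7-tissue adipose libraries and the cold libraries therefore differ in more than genotype.

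Glycogen synthesis starts on glycogenin, encoded by *Gyg*, which primes a short glucose chain on itself. Glycogen synthase then lengthens the chain, as the muscle-type enzyme Gys1 or the liver-type enzyme Gys2, and the branching enzyme Gbe1 adds side chains. Glycogen phosphorylase releases glucose 1-phosphate from the chain ends and exists as muscle (Pygm), liver (Pygl) and brain (Pygb) forms. Proteins of the Ppp1r3 family bring protein phosphatase 1 to the glycogen particle, where it activates synthase and inactivates phosphorylase: Ppp1r3a is known from striated muscle, Ppp1r3b from liver, and Ppp1r3c, also called PTG, from many tissues. In brown and beige fat, glycogen is known to turn over with cold and adrenergic stimulation.

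Several properties of the libraries bear on the values below. The transgene transcript, read as *Ostn*, was at 37.9, 31.6 and 30.3 FPKM in the MCK-Musclin BAT libraries 1 to 3 and at 0 in the WT BAT libraries. In iWAT it was at 0, 5.17 and 4.21 FPKM in MCK-Musclin libraries 1, 2 and 3 and at 0, 0 and 0.225 FPKM in the WT libraries, so the iWAT library labelled MCK-Musclin 1 does not show the transgene, and the log2 differences in iWAT are also given without it. The summed FPKM of 12 skeletal muscle markers was 44.5, 926 and 5052 in WT iWAT libraries 1 to 3 and 42.3, 212 and 228 in MCK-Musclin iWAT, against 149881 in tibialis anterior, and *Ckm*, the gene of muscle creatine kinase, was at 0 in library 1 of both genotypes. Most of the sum in these 2 libraries came from 1 marker, *Myl1*, at 33.6 FPKM in WT and 31.1 FPKM in MCK-Musclin library 1. The part of muscle content in the absence of *Ostn* from MCK-Musclin library 1 was not tested. In bulk tissue, fewer cells of a type and less RNA per cell cannot be told apart. The defining markers of each labelled tissue were highest in that tissue, and the 10 general adipocyte markers summed to 16803 to 17811 FPKM in WT and 15073 to 16668 FPKM in MCK-Musclin iWAT.

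Across the 7 tissues the genes differed in which tissue was highest. Tibialis anterior held the highest level of 5 of the 10 genes, liver of 3, heart of 1 and brown adipose tissue of 1. With 1 library per tissue there is no replicate check, and the order of close neighbours cannot be told from library noise. A highest tissue at least 4-fold above the next, with 0.1 FPKM added to both, was found for 2 of the 10 genes, and for 26.2% of the 18327 genes that reached 1 FPKM somewhere.

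**Figure D1:**
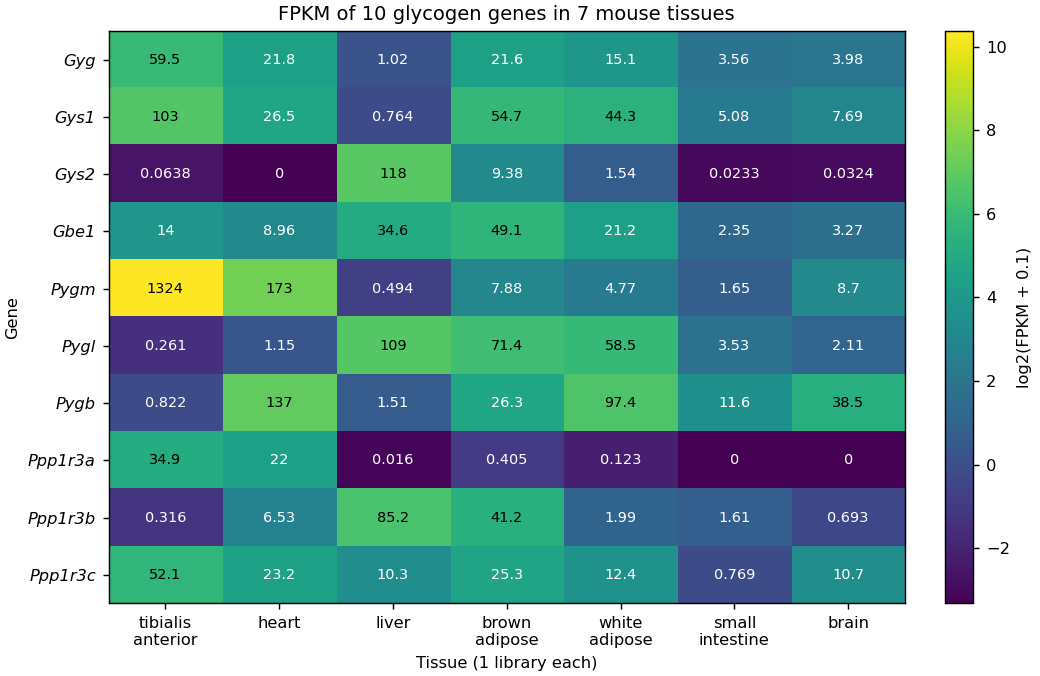
FPKM of the 10 genes (rows) in 7 mouse tissues (columns), 1 library each; colour is log2(FPKM + 0.1) and the printed number is the FPKM. *Pygm* in tibialis anterior, at 1324 FPKM, is the highest value, and *Gys2*, *Pygl* and *Ppp1r3b* share high levels in liver with a next-highest level in brown adipose tissue.

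The genes of the first steps differed by tissue. *Gyg*, the primer of the chain, stood at 59.5 FPKM in tibialis anterior, at 21.8 in heart, 21.6 in brown adipose and 15.1 in white adipose tissue, and at 1.02 in liver. *Gys1*, the muscle-type synthase, stood at 103 FPKM in tibialis anterior, 54.7 in brown adipose, 44.3 in white adipose tissue and 26.5 in heart, and at 0.764 in liver. *Gys2* was instead highest in liver, with 118 FPKM there, 9.38 in brown adipose and 1.54 in white adipose tissue, and under 0.1 FPKM or listed at 0 in the remaining tissues. *Gys2* therefore made up 99.4% of the summed synthase FPKM in liver, 14.6% in brown adipose tissue, 3.35% in white adipose tissue and 0.0618% in tibialis anterior. *Gbe1*, the branching enzyme that both synthases need, was highest in brown adipose tissue, at 49.1 FPKM, ahead of liver at 34.6 and white adipose tissue at 21.2 FPKM.

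The 3 phosphorylases were each highest in a different tissue, but only *Pygm* was at least 4-fold above its next tissue. *Pygm* reached 1324 FPKM in tibialis anterior and 173 FPKM in heart, and was 8.70 FPKM or lower in the other tissues. *Pygl* was highest in liver at 109 FPKM, followed by brown adipose tissue at 71.4 and white adipose tissue at 58.5 FPKM, and was lowest in tibialis anterior at 0.261 FPKM. *Pygb*, named for brain, was highest in heart at 137 FPKM and stood at 97.4 FPKM in white adipose tissue and 38.5 FPKM in brain. It was the only phosphorylase above 10 FPKM in brain, where it made up 78.1% of phosphorylase FPKM. Its first place depends on scaling, and white adipose tissue was highest when each library was scaled to its summed FPKM. The mitochondrially encoded genes took 53.6% of FPKM in heart and 13.3% in white adipose tissue.

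Among the phosphatase targeting subunits, *Ppp1r3a* was highest in the 2 striated muscle libraries, with 34.9 FPKM in tibialis anterior and 22.0 in heart against 0.405 FPKM or less elsewhere. *Ppp1r3b* stood at 85.2 FPKM in liver and 41.2 FPKM in brown adipose tissue, but at only 1.99 FPKM in white adipose tissue and 0.316 FPKM in tibialis anterior. *Ppp1r3c* was the most even, from 0.769 FPKM in small intestine to 52.1 FPKM in tibialis anterior, with 25.3 FPKM in brown adipose tissue. The subunit with the most FPKM was *Ppp1r3b* in liver (89.2% of the 3), brown adipose tissue (61.6%) and small intestine (67.6%), and *Ppp1r3c* in the other tissues.

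The nearest neighbours of the strongest tissue patterns were sought among 10412 genes that reached 10 FPKM in some tissue, by Pearson correlation of log2(FPKM + 1) over the 7 libraries. *Pon1*, *Sec14l4* and *Ddt* came closest to *Gys2*, with r of 0.995, 0.991 and 0.989. *Eno3*, *Pgam2* and *Mlf1* came closest to *Pygm*, with r of 0.990, 0.988 and 0.985, and the first 2 encode glycolytic enzymes of muscle. With 7 points dominated by 1 or 2 tissues, these values describe which tissue was high.

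**Figure D2:**
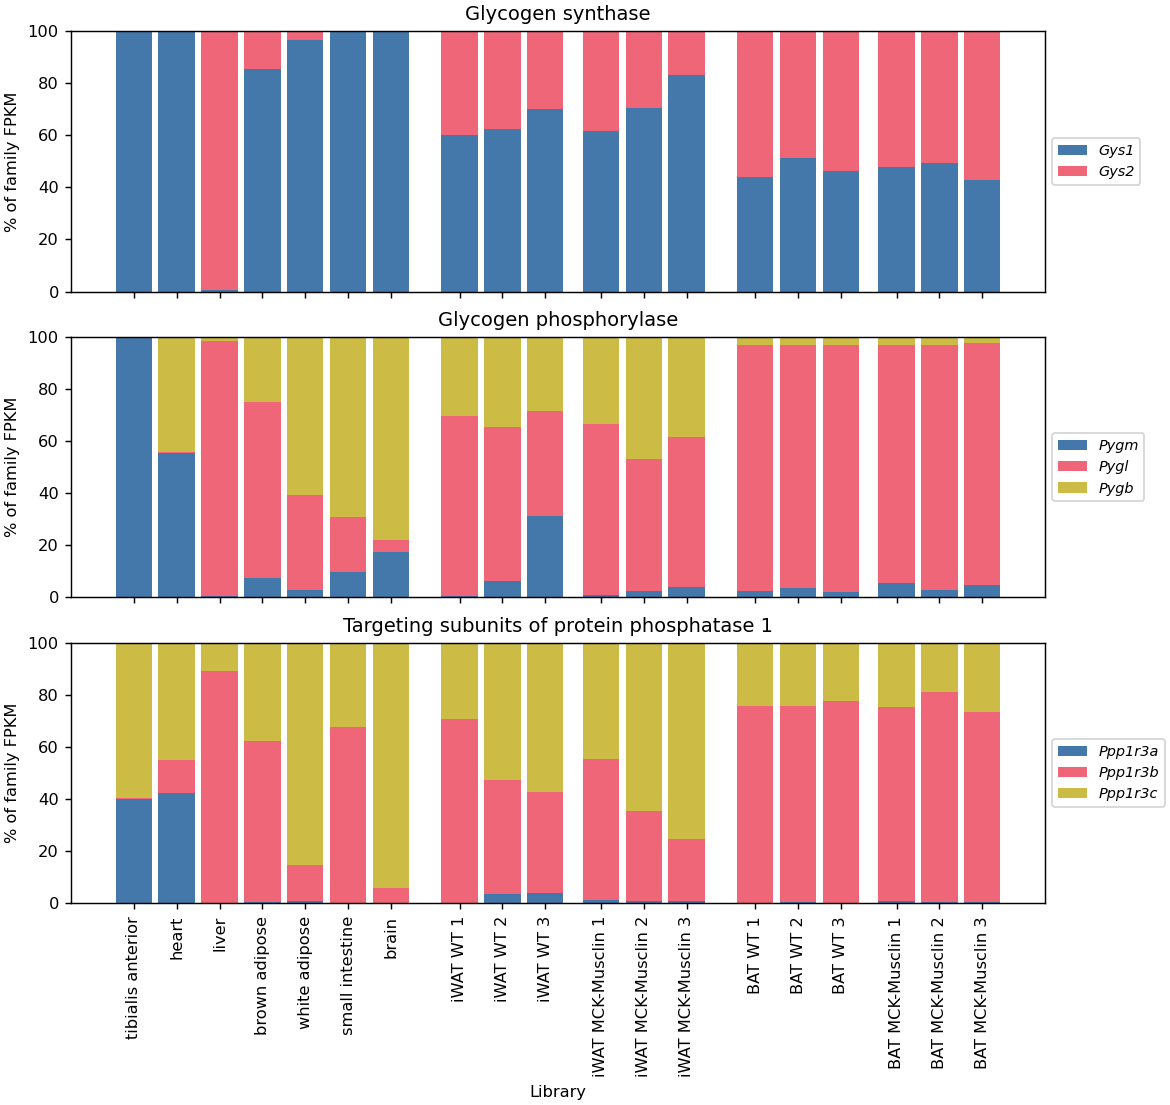
Percent of the summed FPKM of each family (stacked bars) taken by each gene in all 19 libraries: glycogen synthase (top), glycogen phosphorylase (middle) and the 3 phosphatase targeting subunits (bottom). The cold BAT libraries carry 91.5% to 95.1% *Pygl*, and the iWAT libraries vary more among themselves than the BAT libraries do.

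The 2 adipose depots of cold mice used the families differently. In WT BAT the values of *Pygl* were 276 to 297 FPKM and of *Pygb* 8.44 to 9.10 FPKM, while in WT iWAT *Pygl* ranged from 48.4 to 81.2 and *Pygb* from 33.9 to 37.4 FPKM. The 2 forms thus differed in opposite directions between the depots, with *Pygl* 4.41 times as high and *Pygb* 4.03 times lower in BAT by FPKM. *Gys2* ranged from 50.9 to 65.1 FPKM in WT BAT and from 16.9 to 26.8 FPKM in WT iWAT. *Gbe1* ranged from 69.8 to 80.2 and from 24.5 to 38.6 FPKM, and *Ppp1r3b* from 84.7 to 111 and from 6.37 to 34.8 FPKM. Of the 10 genes, 6 had every WT BAT library above every WT iWAT library, 1 (*Pygb*) had the reverse, and 3 (*Pygm*, *Ppp1r3a*, *Ppp1r3c*) overlapped. Over 12218 genes the corresponding shares were 9.31% with BAT above and 74.0% with BAT below.

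The tables were made separately, no test was run across them, and the depot order of several genes depends on scaling. The mitochondrially encoded genes took 50.6% to 52.0% of FPKM in BAT, and the iWAT table used here lists 0 of them. When each library was scaled to its summed FPKM, 2 genes stayed wholly above in BAT (*Pygl*, *Ppp1r3b*), 2 were wholly below (*Gys1*, *Pygb*) and 6 overlapped. When it was scaled to the sum over the 13750 genes that both tables list, a scaling chosen after these values were seen, 7 were above and 1 (*Pygb*) below. *Pygl* and *Ppp1r3b* higher in BAT and *Pygb* higher in iWAT held under all 3 scalings, but the sizes moved. The log2 difference of BAT minus iWAT in WT was 2.16 by FPKM, 1.21 scaled to summed FPKM and 2.64 scaled to the shared genes for *Pygl*, and -1.89, -2.87 and -1.51 for *Pygb*.

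The cold BAT libraries also stood apart from the brown adipose library of the 7-tissue set, which was not labelled as cold-exposed. *Gys2* was at 9.38 FPKM in that library and at 50.9 to 65.1 FPKM in cold WT BAT. *Pygl* was at 71.4 against 276 to 297 FPKM and *Ppp1r3b* at 41.2 against 84.7 to 111 FPKM, whereas *Pygb* was at 26.3 against 8.44 to 9.10 FPKM. The share of *Gys2* among synthase FPKM was 14.6% in that library and 48.6% to 56.1% in cold WT BAT. *Gys1* hardly differed, at 54.7 against 51.0 to 53.8 FPKM. The 10 brown and beige adipocyte markers also differed, at 3214 FPKM in that library and 9431 to 10577 FPKM in cold WT BAT, and their part was not tested. The libraries differ in experiment, table and housing, and possibly in age, which cannot be told apart, and no test was run.

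For iWAT, the question was how the genotype compares after cold exposure, and the members' values are described without a test because this contrast helped to choose them. *Ppp1r3b*, the liver-type targeting subunit, was at 34.8, 6.37 and 25.0 FPKM in WT libraries 1, 2 and 3 and at 5.31, 2.91 and 4.57 FPKM in MCK-Musclin libraries 1, 2 and 3. The genotypes did not overlap, but WT library 2 was only 1.06 FPKM above the highest MCK-Musclin library and far below the other 2 WT libraries. The means were 22.0 ± 14.4 and 4.26 ± 1.23 FPKM (SD, n = 3 each), 5.17-fold lower in MCK-Musclin, and the difference of mean log2(FPKM + 1) was -1.88. Leaving out 1 library at a time gave -2.56 to -1.42, and leaving out MCK-Musclin library 1, which lacks *Ostn*, gave -2.03. The library with the highest *Ppp1r3b*, WT library 1, had a skeletal muscle marker sum of 44.5 FPKM, and the gene was at 0.316 FPKM in tibialis anterior. The part of muscle in the *Ppp1r3b* values was not tested. The 10 brown and beige adipocyte markers summed to 594, 1000 and 1129 FPKM in WT libraries 1 to 3 and to 707, 251 and 144 FPKM in MCK-Musclin libraries 1 to 3. Their group means were 907 and 367 FPKM, and their part in the *Ppp1r3b* difference was not tested.

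*Gys1* was the other gene whose groups did not overlap in iWAT. Its values were 40.1, 40.1 and 39.8 FPKM in WT and 36.3, 30.9 and 29.8 FPKM in MCK-Musclin libraries. The WT libraries were nearly equal and each was above the MCK-Musclin libraries, with a log2 difference of -0.30, or -0.39 without MCK-Musclin library 1. Exons of *Gys1* (chromosome 7, 45434844 to 45456619, plus strand, GRCm38) overlap those of *Ruvbl2* on the minus strand, and the counting did not use strand, so reads of the 2 genes cannot be told apart there. Among all 12197 genes tested in iWAT, 5.44% had all MCK-Musclin libraries below all WT libraries and 17.9% had them above.

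**Figure D3:**
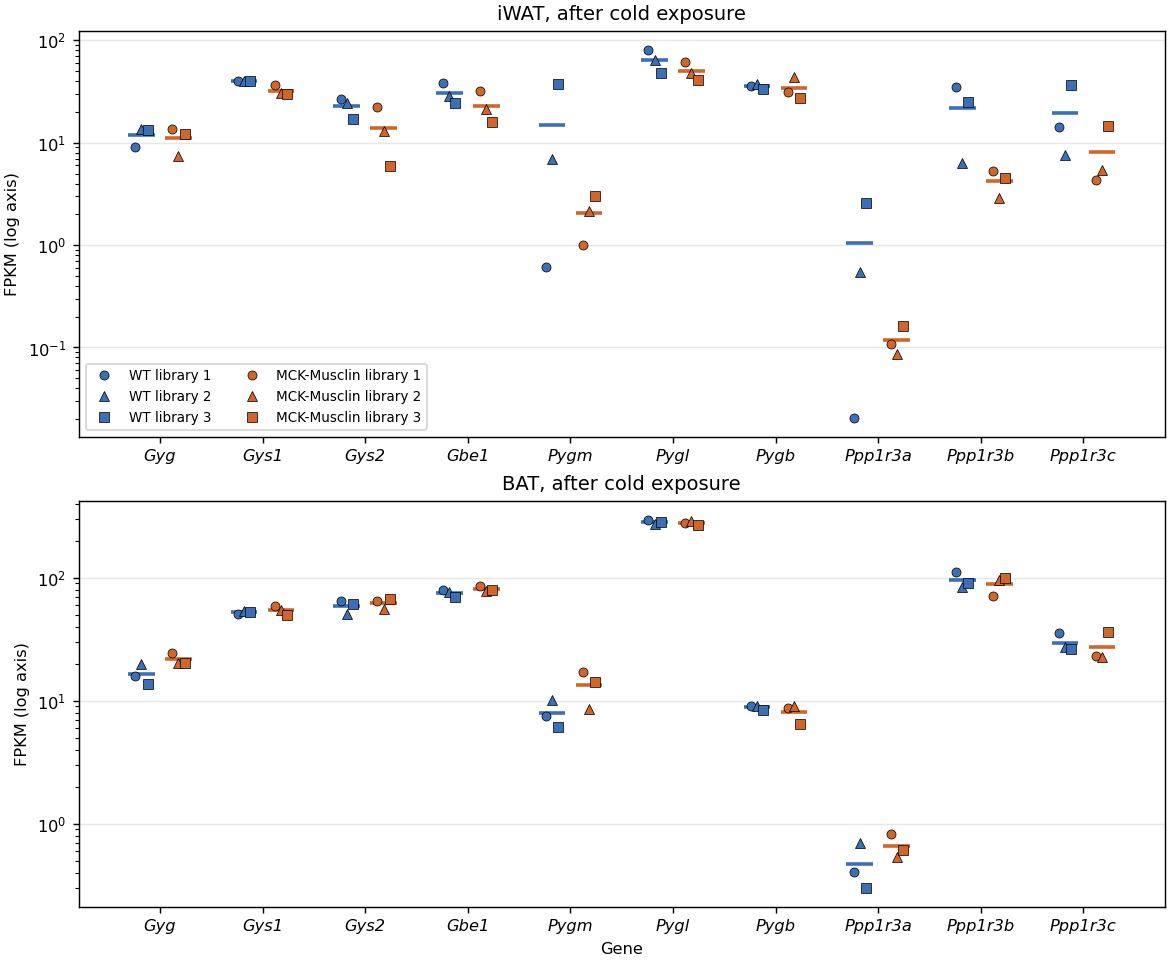
FPKM (log axis) of the 10 genes in each cold iWAT library (top) and BAT library (bottom); blue is WT, orange is MCK-Musclin, symbols mark library numbers and short lines the group means. In iWAT the orange symbols of *Ppp1r3b* and *Gys1* lie wholly below the blue ones, and in BAT those of *Gyg* lie wholly above.

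*Gys2*, *Gbe1* and *Pygl*, a synthase, the branching enzyme and a phosphorylase, followed one another across the 6 iWAT libraries. *Gys2* was at 26.8, 24.3 and 16.9 FPKM in WT and at 22.5, 12.97 and 5.98 FPKM in MCK-Musclin iWAT. *Gbe1* was at 38.6, 28.9 and 24.5 and at 32.1, 21.2 and 16.1 FPKM. *Pygl* was at 81.2, 64.3 and 48.4 and at 61.8, 47.9 and 41.4 FPKM. In each gene library 1 was the only MCK-Musclin library inside the WT range, and *Pygl* and *Gys2* ranked the 6 libraries identically. Pearson's r of log2 values over the 6 libraries was 0.957 for *Gbe1* with *Pygl*, 0.954 for *Gys2* with *Gbe1* and 0.882 for *Gys2* with *Pygl*. These points share the genotype difference and the tissue composition of the same libraries, so r is given as a description.

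The log2 differences were -0.82 for *Gys2*, -0.42 for *Gbe1* and -0.34 for *Pygl*, each with overlapping groups. Without MCK-Musclin library 1 they were -1.23, -0.67 and -0.50, and none of the 3 overlapped any more. For *Pygl* the gap was narrow, with MCK-Musclin library 2 at 47.9 FPKM and WT library 3 at 48.4 FPKM. In that comparison of 3 against 2 libraries, 5 of the genes lay wholly below WT, where 10.01% of all genes did. MCK-Musclin library 1 stood apart in the brown and beige adipocyte markers too, at 707 FPKM against 251 and 144 FPKM in the other 2. The 10 B cell and T cell markers summed to 211 to 323 FPKM in WT and 399 to 479 FPKM in MCK-Musclin iWAT. The part of either cell type in the differences was not tested.

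*Pygm*, *Ppp1r3a* and *Ppp1r3c*, which were all highest in tibialis anterior, spread widely among the iWAT libraries, as *Ppp1r3b* did. *Pygm* was at 0.605, 6.87 and 37.6 FPKM in WT and at 0.999, 2.14 and 3.00 FPKM in MCK-Musclin libraries. *Ppp1r3a* was at 0.0203, 0.542 and 2.56 and at 0.109, 0.0865 and 0.161 FPKM, a mean below the filter of 1 FPKM. WT library 3 was the highest and WT library 1 the lowest of all 6 for both genes, and their log2 values correlated with r = 0.969. The order of the WT libraries was also that of the skeletal muscle markers, whose 12 genes were all above 0 in 4 of the libraries and had 2 at 0 in library 1 of each genotype. At the ratio of *Pygm* to these markers in tibialis anterior, the marker sums of WT libraries 1, 2 and 3 would go with 0.393, 8.18 and 44.6 FPKM of *Pygm*. The part of muscle in the measured values was not tested. The log2 difference of *Pygm* was -1.43 with all libraries, -0.28 without WT library 3, and -2.57 without WT library 1. When MCK-Musclin library 1 was left out it was -1.15. Without both WT library 3 and MCK-Musclin library 1, a choice made after seeing the data, it was -0.00313.

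*Ppp1r3c* was at 14.4, 7.65 and 36.7 FPKM in WT and at 4.36, 5.47 and 14.5 FPKM in MCK-Musclin iWAT, with overlapping groups and a log2 difference of -1.07. The tibialis anterior ratio would give 1.76 FPKM of *Ppp1r3c* in WT library 3, and the part of muscle in its values was not tested. Without that library the log2 difference was -0.50, and without MCK-Musclin library 1 it was -0.77. *Gyg* was at 9.10, 13.5 and 13.5 against 13.7, 7.36 and 12.1 FPKM, and *Pygb* at 35.5, 37.4 and 33.9 against 31.2, 43.9 and 27.4 FPKM. Both overlapped, with log2 differences of -0.13 and -0.08, which were -0.30 and -0.034 without MCK-Musclin library 1. Leaving out MCK-Musclin library 2 turned *Gyg* to 0.11, and leaving out MCK-Musclin library 3 turned *Pygb* to 0.057.

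**Figure D4:**
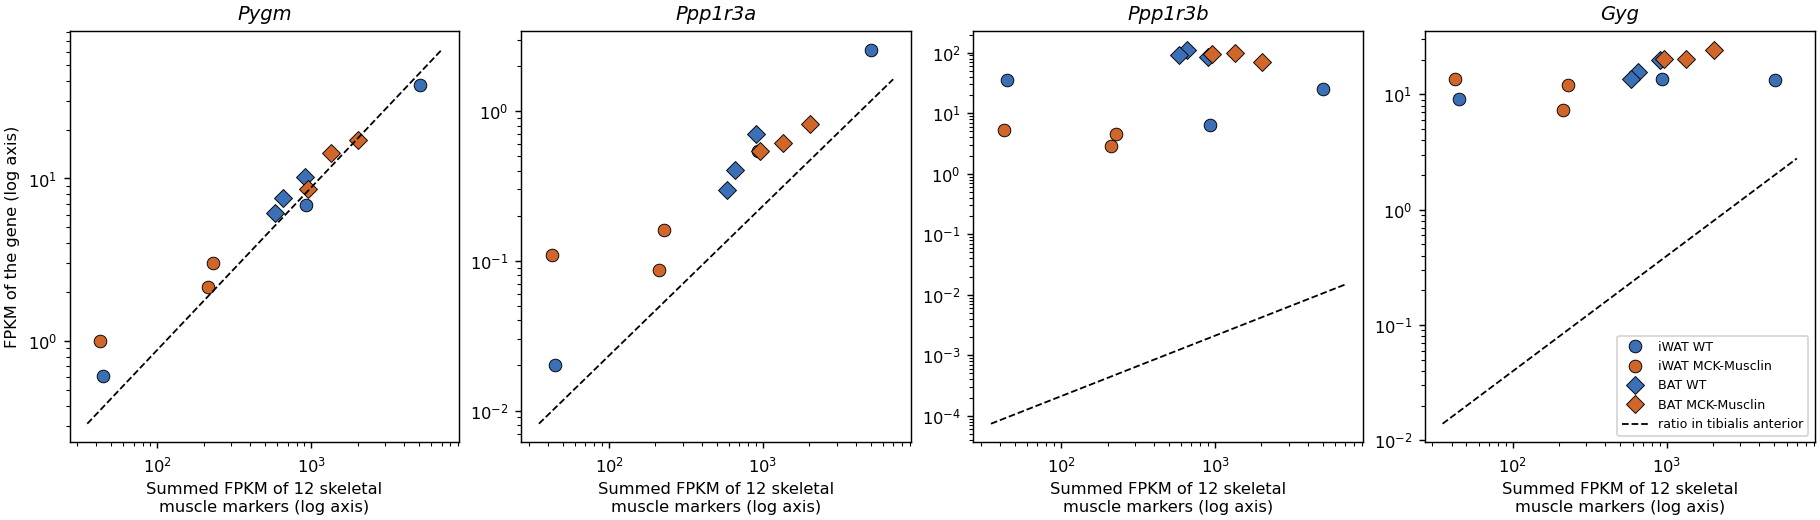
FPKM of *Pygm*, *Ppp1r3a*, *Ppp1r3b* and *Gyg* against the summed FPKM of 12 skeletal muscle markers in the 12 cold adipose libraries (both axes log); circles are iWAT, diamonds BAT, blue WT and orange MCK-Musclin, and the dashed line is the gene-to-marker ratio in tibialis anterior. *Pygm* runs near the line, while *Ppp1r3b* and *Gyg* lie far above it at every marker level. *Ppp1r3a* lies above the line and rises with the markers in WT iWAT. It did not rise from MCK-Musclin iWAT library 1 to library 2, at 0.109 and 0.0865 FPKM with marker sums of 42.3 and 212 FPKM.

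The promoters of *Pygm* and *Ppp1r3a*, whose WT iWAT values ran in the order of the muscle markers, are shown here. They surround the start of transcription, as RefSeq places it on GRCm38.p6. Each sequence runs 250 bases before to 50 bases after the start, on the gene's own strand, and lies at chr19:6384158-6384457 (plus strand) for *Pygm* and chr6:14755225-14755524 (minus strand) for *Ppp1r3a*. Capitals mark the E-box CANNTG, the motif bound by the MyoD family of muscle factors, and in *Ppp1r3a* also the run of capitals longer than an E-box, which matches the MEF2 consensus, a motif chosen after the sequence was seen.
Pygm: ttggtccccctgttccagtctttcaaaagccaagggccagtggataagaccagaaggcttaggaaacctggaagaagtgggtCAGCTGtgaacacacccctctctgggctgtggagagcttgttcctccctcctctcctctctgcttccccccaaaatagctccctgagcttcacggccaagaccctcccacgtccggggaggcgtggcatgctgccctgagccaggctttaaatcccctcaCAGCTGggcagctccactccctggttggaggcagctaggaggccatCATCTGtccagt
Ppp1r3a: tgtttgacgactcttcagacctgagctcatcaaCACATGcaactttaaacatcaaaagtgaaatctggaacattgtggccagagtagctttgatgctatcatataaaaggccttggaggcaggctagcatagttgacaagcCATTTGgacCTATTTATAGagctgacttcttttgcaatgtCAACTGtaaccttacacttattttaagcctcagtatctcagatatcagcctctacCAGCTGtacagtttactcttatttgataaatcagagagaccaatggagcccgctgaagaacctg
The *Pygm* stretch holds 3 E-boxes, and the *Ppp1r3a* stretch holds 4 E-boxes and 1 MEF2 match, none overlapping. Searched on both strands, an E-box occurs in 72.3% of 32817 promoters of the same length and the MEF2 consensus in 3.19%. *Gyg*, *Gys1*, *Gbe1* and *Ppp1r3c* have 2 E-boxes each in the same window, and *Pygl* and *Pygb* have 0. A match is a string in the window and was not tested as a site.

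As a list, the 9 genes that passed the filter of a mean of 1 FPKM all had log2 differences below 0 in iWAT, and 38.7% of all genes tested were below 0. *Gyg* and *Pygb* turned above 0 after centring on adipocyte markers, and each did so when 1 MCK-Musclin library was left out, library 2 for *Gyg* and library 3 for *Pygb*. The median of the 9 genes was -0.42, beside 0.06 for all genes, and -0.67 beside 0.07 without MCK-Musclin library 1. Since *Ppp1r3b* helped to choose the list, nothing is read from these counts. Centring the libraries on the general adipocyte markers moved the median of all genes to 0.27 and that of the 9 genes to -0.21. Under that centring *Gyg* and *Pygb* turned to 0.07 and 0.12, *Ppp1r3b* stood at -1.67 and *Gys1* at -0.10, and no gene kept its groups apart.

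Other genes of glycogen metabolism were read from a list of 21, which holds the enzymes of glucose 1-phosphate and UDP-glucose supply, phosphorylase kinase, glycogen synthase kinase 3, further phosphatase subunits, and the proteins of lysosomal breakdown and glycogen quality control. This list too was chosen with earlier results of these data known, and its p-values in either depot are read with that limit. In iWAT 18 of its genes were listed and 16 passed the filter. Of these, 11 had a log2 difference below 0, and the median of the 16 was -0.10. By limma with Benjamini-Hochberg adjustment, 0 of the 16 passed an adjusted p of 0.05, as did 0 of 12197 genes (0.0%), while 3 of the 16 and 16.5% of all genes had an unadjusted p under 0.05. At the cutoff of the study for iWAT, an unadjusted p under 0.05 and a log2 fold change beyond 0.5, 0 of the 16 were lower and 0 were higher, beside 0.902% and 5.04% of all genes. Over all genes that is 110 lower and 615 higher, and the split was 184 and 429 with median-ratio scaling, 201 and 605 by TPM, and 25 and 1884 after centring on adipocyte markers. The study applied this cutoff to DESeq2 results and reported other numbers of genes, so these limma counts are not its own.

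Of the 5 measured subunits of phosphorylase kinase, which switches phosphorylase on, none passed the adjusted threshold in iWAT. *Phka1*, *Phka2* and *Phkg1* had overlapping groups and log2 fold changes of -0.27, -0.08 and -0.26 (limma adjusted p = 0.503, 0.786 and 0.688). *Phkb*, a regulatory subunit, was at 12.9, 13.2 and 17.2 FPKM in WT and at 11.6, 11.4 and 9.72 FPKM in MCK-Musclin libraries, so that the fold change was -0.37 on the log2 scale (limma adjusted p = 0.253). *Phkg2*, the liver-type catalytic subunit, was at 9.68, 8.30 and 8.40 against 11.1, 11.6 and 10.8 FPKM, which is 0.32 on the log2 scale (limma adjusted p = 0.201). The exons of *Phkg2* overlap those of *Ccdc189*. *Epm2a*, which encodes the glycogen phosphatase laforin, was at 4.07, 3.95 and 5.64 against 3.31, 3.40 and 2.84 FPKM, which is -0.40 on the log2 scale (limma adjusted p = 0.249). In each of these 3 the groups did not overlap. Over the 16 genes 3 were wholly lower in MCK-Musclin (*Phkb*, *Epm2a* and *Ugp2*), beside 5.44% of all genes, and 1 wholly higher (*Phkg2*), beside 17.9%. Without MCK-Musclin library 1 these were again 3 and 1, beside 10.01% and 25.7% of all genes, with log2 fold changes of -0.41 for *Phkb*, -0.42 for *Epm2a*, -0.26 for *Ugp2* and 0.32 for *Phkg2* (limma adjusted p of 0.288 to 0.355).

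**Figure D5:**
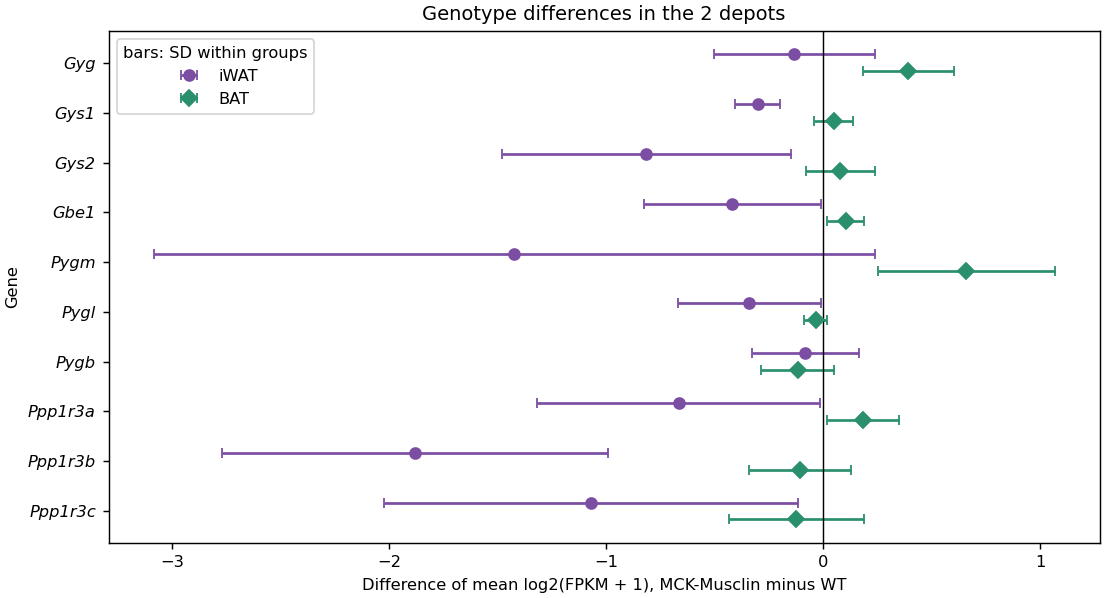
Difference of mean log2(FPKM + 1), MCK-Musclin minus WT, for the 10 genes in iWAT (circles) and BAT (diamonds); bars are the SD within groups and values below 0 are lower in MCK-Musclin. The 10 iWAT points lie below 0, from -1.88 for *Ppp1r3b* to -0.08 for *Pygb*, although centring on adipocyte markers, or leaving out 1 MCK-Musclin library, turned *Gyg* and *Pygb* above 0, and the BAT points lie on both sides of 0.

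In BAT the same question was tested, because the measured value that helped to choose the genes came from iWAT. The genes were still chosen with earlier results of these data known, so BAT is not shown to be an untouched contrast. The p-values in BAT are read with that limit. By limma with Benjamini-Hochberg adjustment, 0 of the 9 genes that passed the filter had an adjusted p under 0.05, where 1 of 10893 genes (0.00918%) did. At an unadjusted p under 0.05 there were 2 of the 9, beside 4.89% of all genes. Both also passed the cutoff of the study for BAT, a log2 fold change beyond 0.3, as higher, which 1.85% of all genes did, and 0 passed it as lower, which 2.15% did. Over all genes that is 202 higher and 234 lower, and the split was 239 and 189 by TPM and 350 and 72 after centring on adipocyte markers. These are limma counts, whereas the study applied its cutoff to DESeq2 results. Of the 9 genes 4 had a log2 fold change below 0, beside 52.3% of all genes, and their median was 0.05, beside -0.01 for all genes.

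*Ppp1r3b* in BAT was at 111, 84.7 and 90.8 FPKM in WT and at 71.0, 96.4 and 99.7 FPKM in MCK-Musclin libraries. The groups overlapped, and the log2 fold change of -0.11 had a 95% interval of -0.48 to 0.26 (limma adjusted p = 0.977). *Gys2* was at 65.1, 50.9 and 61.1 against 64.1, 55.7 and 66.7 FPKM, and *Gbe1* at 80.2, 77.2 and 69.8 against 85.8, 78.7 and 79.2 FPKM. Their 95% intervals were -0.20 to 0.36 and -0.10 to 0.31. *Pygl*, at 267 to 297 FPKM over all 6 libraries, had the narrowest interval of the 9 genes, -0.21 to 0.14.

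The 2 genes at the study's cutoff in BAT were *Gyg* and *Pygm*. *Gyg* was at 15.8, 20.0 and 13.7 FPKM in WT and at 24.3, 20.4 and 20.4 FPKM in MCK-Musclin BAT. The groups did not overlap, as in 4.38% of all genes with MCK-Musclin higher, although WT library 2 came within 0.480 FPKM of the MCK-Musclin libraries. The log2 fold change was 0.39 with a standard error of 0.15 (limma adjusted p = 0.968). *Pygm* was at 7.58, 10.2 and 6.10 against 17.2, 8.63 and 14.3 FPKM, with overlapping groups and a log2 fold change of 0.66 with a standard error of 0.26 (limma adjusted p = 0.968).

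The skeletal muscle markers moved with both genes in BAT. Their sums were 655, 902 and 583 FPKM in WT and 2018, 953 and 1338 FPKM in MCK-Musclin BAT, each MCK-Musclin library above each WT library, and all 12 markers were above 0 in every library. At the tibialis anterior ratio these sums would go with 5.79, 7.97 and 5.15 FPKM of *Pygm* in WT and 17.8, 8.41 and 11.8 FPKM in MCK-Musclin BAT, beside the measured values above. For *Gyg* the ratio would give 0.232 to 0.801 FPKM over the 6 libraries, and the group means differed by 5.26 FPKM. The ratio comes from 1 tibialis anterior library and need not hold for other muscle. The part of muscle in the values of either gene was not tested. Within BAT the log2 values of *Gyg* and *Pygm* correlated with r = 0.893 over 6 libraries that share genotype and muscle marker level.

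The shares within the families did not separate the genotypes in BAT. *Gys2* made up 52.8% ± 3.79 of synthase FPKM in WT and 53.3% ± 3.46 in MCK-Musclin BAT (SD, n = 3 each; exact two-sided permutation p = 0.9). *Pygm* made up 2.64% ± 0.726 and 4.46% ± 1.45 of phosphorylase FPKM (exact two-sided permutation p = 0.2). *Ppp1r3b* made up 76.1% ± 1.21 and 76.1% ± 4.01 of the 3 subunits (exact two-sided permutation p = 1.0). Over the 7 shares tested the Benjamini-Hochberg adjusted values of the exact permutation tests were 0.7 to 1.0, and 3 libraries against 3 cannot give a p below 0.1.

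In iWAT the same shares varied from library to library. *Ppp1r3b* took 70.7%, 43.7% and 38.9% of subunit FPKM in WT and 54.3%, 34.3% and 23.7% in MCK-Musclin libraries 1 to 3, so that *Ppp1r3c* was the main subunit in 4 of the 6 libraries. *Gys2* took 40.0%, 37.7% and 29.8% of synthase FPKM in WT and 38.3%, 29.6% and 16.7% in MCK-Musclin iWAT. *Pygm* took 31.3% of phosphorylase FPKM in WT library 3 and 0.516% to 6.33% in the other 5. All of these shares overlapped between the genotypes with all 6 libraries. Without MCK-Musclin library 1 those of *Ppp1r3b* and *Gys2* lay wholly below WT, for *Gys2* only narrowly, at 29.6% against 29.8%.

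Of the 21 further glycogen genes, 18 passed the filter in BAT, 0 had a limma adjusted p under 0.05, and 1 had an unadjusted p under 0.05. That gene, *Stbd1*, which tethers glycogen to membranes for breakdown, was also the only one at the study's cutoff, at 3.78, 3.63 and 4.86 FPKM in WT and 5.22, 5.82 and 5.61 FPKM in MCK-Musclin BAT. Its log2 fold change was 0.37 with a standard error of 0.13 (limma adjusted p = 0.968). In all, 6 of the 18 had non-overlapping groups with MCK-Musclin higher, beside 4.38% of all genes: *Stbd1*, *Ugp2*, *Phka1*, *Phkb*, *Phkg1* and *Ppp1cb*. Of these, all but *Stbd1* were also highest in tibialis anterior among the 7 tissues. The phosphorylase kinase subunits *Phka1*, *Phkb* and *Phkg1* stood there at 83.2, 74.9 and 129 FPKM and *Ugp2* at 191 FPKM. *Ppp1cb* stood there at 49.3 FPKM, close to brown adipose tissue at 47.7 FPKM. *Stbd1* was highest in liver and next in tibialis anterior, at 25.6 FPKM. The part of the muscle markers in the values of these 6 genes was not tested. None of the 18 had the groups apart in the other direction, as 5.63% of all genes did. *Ugp2* and *Phkb* were wholly lower in iWAT and wholly higher in BAT, as were 0.287% of the 9757 genes tested in both depots, and the difference between the depots was not tested.

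The genes most like *Ppp1r3b* across the 6 iWAT libraries, among 8290 genes with a mean of at least 5 FPKM, were *Slc25a32*, *Abhd6*, *Arel1*, *Kctd6* and *Hoxc10*, with Pearson's r of log2(FPKM + 1) from 0.974 to 0.995. Their ranges were narrow beside that of *Ppp1r3b*: *Slc25a32*, the closest, ran from 5.34 to 8.09 FPKM. With 6 points that share genotype and composition, high values of r arise among many genes, and the list is a description.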

How the data were processed

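RNA was sequenced from 19 mouse libraries. The authors used fastp and Bowtie2 as read filters and HISAT2 2.1.0 for alignment to mm10 (GRCm38) without strand, and deposited gene FPKM values, made with StringTie by the paper's methods. The submitters' processing notes differ from those methods in naming Cuffdiff and in the Bowtie2 version (2.4.1 in the notes). The deposited iWAT table also holds the authors' own DESeq2 comparison: group means as normalized signal, a log2 fold change, a p-value and an FDR per gene; these were not used. Its gene filter is not given in the sources used here. Counts were not analysed here, so read depth is unknown; summed FPKM per library was 393682 to 711437 (7 tissues), 676362 to 720852 (BAT) and 364710 to 384104 (iWAT). Both the 7-tissue and the BAT file repeat 287 lines, which were used once.

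Genotypes were compared within a table by limma 3.58.1 in R 4.3.3 (lmFit, eBayes with trend) on log2(FPKM + 1), for genes with a mean of at least 1 FPKM, with Benjamini-Hochberg adjustment over the table. Fold changes on this scale understate those of low genes. Shares were compared by exact permutation with scipy 1.17.1. The fit was tested on simulated data. The study describes its RNA-seq samples as coming from independent animals. The 10 genes, the 21 further genes and the marker lists were chosen with earlier results of these data known; 1 more gene of that pathway list is not reported here. Genes named are these lists, *Ostn*, the 5 genes most like *Ppp1r3b* in iWAT and the 3 most like *Gys2* and *Pygm* across tissues. Positions are from GENCODE M21 and promoters from RefSeq (GRCm38.p6), which matched 8 of the 10 genes; *Gys2* and *Ppp1r3b* had no entry. Alternatives were a pseudocount of 0.1, no filter, a filter of 5 FPKM, TPM, median-ratio scaling, centring on adipocyte markers, no trend, a replicate block and each library left out.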

Additional observations from a re-analysis of the deposited data

Results flagged for a closer look

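For 2 of the further glycogen genes, the genotypes did not overlap in either depot, with MCK-Musclin lower in iWAT and higher in BAT. Of all genes 5.44% were wholly lower in iWAT, 4.38% wholly higher in BAT and 0.287% both. The difference between the depots was not tested. The mean sum of the skeletal muscle markers also was lower in MCK-Musclin iWAT, at 161 against 2008 FPKM in WT. In BAT it was higher, at 1436 against 714 FPKM. The iWAT sums overlapped between the genotypes, with WT library 1 at 44.5 FPKM. Both genes were highest in tibialis anterior among the tissues, *Ugp2* at 191 and *Phkb* at 74.9 FPKM. The part of muscle in their values was not tested in either depot. *Ugp2*, which makes UDP-glucose for glycogen synthase, was at 61.0, 54.0 and 50.7 FPKM in WT and 49.3, 47.6 and 44.1 FPKM in MCK-Musclin iWAT, which is -0.23 on the log2 scale (limma adjusted p = 0.326). In BAT it was at 89.7, 87.3 and 78.5 against 96.6, 90.8 and 98.2 FPKM, which is 0.16 on the log2 scale (limma adjusted p = 0.968). Exons of *Ugp2* overlap those of *Gm12043* on the other strand.

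*Phkb*, the regulatory subunit of phosphorylase kinase, differed by -0.37 on the log2 scale in iWAT (limma adjusted p = 0.253). In BAT it was at 12.6, 12.4 and 12.5 FPKM in WT and 13.3, 14.5 and 16.7 FPKM in MCK-Musclin, which is 0.23 on the log2 scale (limma adjusted p = 0.968).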

How the results depend on the processing

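Of 700 values recomputed under the alternatives, 641 were counted as unchanged, by a rule that differed with the kind of value. Part of these could not move. Dropping the filter, the filter of 5 FPKM, no trend and the replicate block leave the log2 fold change of a gene as it was. The count is therefore no measure of stability. Fold changes of the members in BAT and of the further genes had to keep their direction and side of the threshold. BAT shares had to keep their direction. Member values and shares in iWAT, and depot differences, had to move by less than the spread. Counts and tissue shares had to stay within a fixed fold, and tissue shares also had to keep their highest tissue. *Ppp1r3b* in iWAT kept its direction under all alternatives run, but its groups overlapped after centring on adipocyte markers. That contrast helped to choose the genes and the alternatives reuse the same libraries, so this is a description and no support. With 3 libraries per group, single libraries decided many counts, and the cause was not tested.

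In BAT the 2 members at the study's cutoff became 1 without the filter. Leaving out 1 library gave 0 to 2 at the cutoff and 1 to 3 with groups apart, where 10.3% to 11.6% of all genes were wholly lower and 7.97% to 10.4% wholly higher. The further genes at the BAT cutoff were 0 with the filter of 5 FPKM, 2 after centring on adipocyte markers and 0 to 1 with a library left out. In that centring the BAT members with groups apart were 0 and *Pygl* reversed to 0.065 (adjusted p = 0.992). With 1 library left out, BAT log2 fold changes crossed 0 for *Gys1* (-0.015 to 0.11), *Gys2* (-0.024 to 0.15), *Pygb* (-0.20 to 0.015), *Ppp1r3b* (-0.20 to 0.046) and *Ppp1r3c* (-0.34 to 0.012), all with adjusted p above 0.99 where reversed. The BAT shares crossed 0 for *Gys2* (-1.54 to 2.18 points), *Ppp1r3b* (-2.31 to 1.53) and *Ppp1r3c* (-1.80 to 2.03).

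In iWAT the further genes at the cutoff, 0 in the values reported, were 1 by TPM and 1 after centring on adipocyte markers, where 1 gene, *Phkg2*, passed an adjusted p of 0.05 (log2 fold change 0.52, limma adjusted p = 0.0383), as did 1305 of all genes, and 0 members had groups apart. Leaving out 1 library gave 2 to 5 members with groups apart, all lower, beside 8.51% to 10.6% of all genes, and leaving out both WT library 3 and MCK-Musclin library 1 gave 5, beside 14.25%. Without 1 library *Phkg1* ranged from -0.55 to 0.06 and *Stbd1* from -0.0020 to 0.47, and without both libraries *Phkg1* was at 0.13.

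Libraries of the 2 genotypes share replicate numbers. Same-numbered libraries had correlations of their deviations of 0.235, 0.061 and 0.107 in iWAT and -0.095, -0.005 and 0.009 in BAT. Differently numbered libraries had -0.180 to 0.070 in iWAT and -0.084 to 0.079 in BAT. In BAT the numbers therefore show no pairing. In iWAT each WT library correlated most with its same-numbered MCK-Musclin library, so a shared factor behind the numbers was not excluded there. The labels state no pairing, and the fits reported treat the libraries as unpaired. With the replicate number as a block, the BAT members at the cutoff were 1 instead of 2, and genes with adjusted p under 0.05 were 0 in iWAT and 1 in BAT over all genes. The read depth is unknown, so differences of low genes such as *Ppp1r3a* could not be judged.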
